A study of Mus musculus with 27 samples.

Results

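T cells and natural killer (NK) cells are the lymphocytes that patrol the liver sinusoids, and 36 genes that mark them or serve their functions were followed in whole liver over a reproductive cycle. The genes were listed by symbol with earlier results of these data known, so the list is not independent of them. They were matched by Ensembl identifier. All 36 were found among the 51826 genes of the deposited tables, and 33 had enough counts to be tested. Klrd1, Ctla4 and Pdcd1 did not.

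The livers came from wild-type BALB/c females described as matched for age, and those of the parous groups were bred at 10 to 12 weeks of age. NUL stands for nulliparous females (4 livers) and LAC for females on day 10 of lactation (3 livers). ID2, ID4, ID6 and ID8 stand for 2, 4, 6 and 8 days after pups were weaned, which ends milk production and starts involution of the mammary gland (3, 4, 6 and 3 livers). REG stands for 4 weeks after weaning (4 livers). Litter sizes were equalised, and weaning came after 10 to 14 days of lactation. Each of the 27 libraries has its own animal number and comes from a frozen, pulverised whole liver, so blood and any tissue attached to the liver were sequenced with it. Values are listed below by animal number, in the order NUL_220, NUL_221, NUL_226, NUL_227, LAC_200, LAC_213, LAC_240, ID2_224, ID2_31, ID2_39, ID4_13, ID4_15, ID4_211, ID4_215, ID8_101b, ID8_14, ID8_98b, REG_203, REG_214, REG_234 and REG_239. The 6 ID6 livers are given as a range with the median.

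A T cell recognises antigen through a receptor whose alpha and beta chains (constant parts Trac, Trbc1 and Trbc2) sit in a complex with the CD3 chains and the zeta chain encoded by Cd247. The kinases Lck and Zap70 carry the signal inward, and CD4 or CD8 decides which class of MHC molecule the cell reads. NK cells have no such receptor: they read activating and inhibiting receptors such as NKp46 (Ncr1) and NKG2D (Klrk1), and, like cytotoxic T cells, kill with perforin and granzymes. Mouse liver is known for a high share of NK, NKT and other CXCR6-positive lymphocytes, which are held in the sinusoids in part by the chemokine CXCL16.

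Total expected counts per library ran from 41120650 to 75664540, and levels are given as CPM, which scale each count to the size of its library after TMM normalization. These genes lay at the low end of that scale. Apart from Zap70, no member averaged above 1.81 CPM over the 27 libraries. Cd3e, a defining T cell gene, had 4 to 52 counts per library, Cd8a 0 to 40, Ncr1 1 to 68 and Klrb1c (NK1.1) 0 to 16. Counting error is therefore large for single genes, and sums of genes are given beside them. All 6 T cell markers (Cd3d, Cd3e, Cd3g, Trac, Trbc1, Trbc2) had counts in every library, so T cell RNA was detected in each liver. In whole tissue, fewer cells of a type and less RNA per cell cannot be told apart.

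Sequences are shown for 2 sets of the genes described below. Trbc1 and Trbc2, on chromosome 6, encode the alternative constant regions of the receptor beta chain, and reads that fall where they are identical cannot be assigned to either. Their coding sequences in GENCODE M21 (GRCm38) are 518 bases each and differ at 23 positions (95.56% identical without gaps), with an identical run of 259 bases. Bases 399 to 518 are shown because they hold 19 of the 23 differences, in capitals, and the other 4 lie before them.
Trbc1: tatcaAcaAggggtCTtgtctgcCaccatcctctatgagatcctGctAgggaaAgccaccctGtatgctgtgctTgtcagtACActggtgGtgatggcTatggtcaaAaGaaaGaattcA
Trbc2: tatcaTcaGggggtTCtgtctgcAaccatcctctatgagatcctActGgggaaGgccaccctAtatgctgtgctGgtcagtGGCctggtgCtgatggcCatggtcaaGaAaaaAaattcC
Expected counts of each were fractional in 20 of 27 libraries, the trace of reads that were divided between them. The summed value of the pair is therefore given with the single ones.

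Promoters are shown for the 5 members that were lower in lactation and are in the RefSeq table: Lck (receptor kinase), Gzma (granzyme), Cd3g (receptor chain), Nkg7 (granule protein) and Cxcr6 (chemokine receptor). Each runs from 250 bases before to 50 bases after a start site in RefSeq on GRCm38.p6, written in the direction of transcription. RefSeq lists 2 start sites for Lck, and the window shown is that at the upstream end of the gene in GENCODE M21. Capitals mark matches on either strand to a Runx motif (TGTGGT), an Ets motif (AGGAAG), a Tcf motif (CTTTGA) or a T-box motif (AGGTGTGA). No match overlaps another.
Lck (chr4:129573592-129573891, minus strand): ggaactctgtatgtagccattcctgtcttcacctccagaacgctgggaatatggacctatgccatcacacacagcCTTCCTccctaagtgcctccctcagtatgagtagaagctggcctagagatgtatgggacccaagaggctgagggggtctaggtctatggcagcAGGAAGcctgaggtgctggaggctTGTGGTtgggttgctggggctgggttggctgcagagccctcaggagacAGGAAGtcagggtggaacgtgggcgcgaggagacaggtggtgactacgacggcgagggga
Gzma (chr13:113100932-113101231, minus strand): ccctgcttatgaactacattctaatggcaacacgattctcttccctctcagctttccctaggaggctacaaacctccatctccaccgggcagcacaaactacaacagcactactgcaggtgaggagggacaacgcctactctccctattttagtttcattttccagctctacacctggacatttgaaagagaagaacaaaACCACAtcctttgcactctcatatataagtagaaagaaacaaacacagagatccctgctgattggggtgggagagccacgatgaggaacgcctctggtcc
Cd3g (chr9:44980382-44980681, minus strand): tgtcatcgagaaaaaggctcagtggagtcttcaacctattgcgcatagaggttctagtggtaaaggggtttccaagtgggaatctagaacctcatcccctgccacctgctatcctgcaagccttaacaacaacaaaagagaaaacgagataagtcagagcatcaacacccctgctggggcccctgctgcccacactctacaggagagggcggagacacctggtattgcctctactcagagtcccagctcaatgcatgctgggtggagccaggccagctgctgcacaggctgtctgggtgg
Nkg7 (chr7:43436888-43437187, plus strand): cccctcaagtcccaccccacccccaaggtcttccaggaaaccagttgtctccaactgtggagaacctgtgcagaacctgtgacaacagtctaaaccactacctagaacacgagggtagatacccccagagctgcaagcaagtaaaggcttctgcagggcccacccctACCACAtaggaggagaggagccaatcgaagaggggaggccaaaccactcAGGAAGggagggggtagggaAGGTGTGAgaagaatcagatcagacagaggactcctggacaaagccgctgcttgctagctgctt
Cxcr6 (chr9:123806227-123806526, plus strand): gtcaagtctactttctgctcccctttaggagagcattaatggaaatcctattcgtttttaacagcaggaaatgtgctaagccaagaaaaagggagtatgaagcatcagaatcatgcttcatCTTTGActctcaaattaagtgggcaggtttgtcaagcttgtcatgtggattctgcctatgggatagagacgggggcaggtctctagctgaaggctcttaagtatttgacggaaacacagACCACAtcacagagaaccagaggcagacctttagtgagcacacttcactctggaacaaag
The Runx letters lie 58, 50, 83 and 10 bases before the start of Lck, Gzma, Nkg7 and Cxcr6, and the Cd3g window holds none of the 4 motifs. Runx letters occur in 13 of the 29 promoter windows of the 24 members in the RefSeq table, and in 16.8% of all 32851 windows. Ets letters occur in 17 of the 29 windows (35.4% of all windows) and Tcf letters in 7 (16% of all windows). T-box letters occur in 1, that of Nkg7, 14 bases before its start (1.28% of all windows). A match is a description of the letters in these windows.

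The question over the whole cycle was whether the level of these genes differs among the 7 stages. A joint test over the stages called 15 of the 33 genes at an edgeR adjusted p under 0.05, where 27% of all 16428 genes tested were called. They were Il2rb, Cxcr6, Nkg7, Gzma, Zap70, Lck, Trbc2, Cd3g, Tbx21, Prf1, Ccl5, Cd3e, Klrk1, Ptprcap and Cd4. The smallest edgeR adjusted p was 2.98e-04, for Il2rb, the beta chain of the receptors for interleukin 2 and interleukin 15. The lowest stage mean was in LAC for 24 of the 36 genes and at ID2 for 7. The highest was at ID6 for 18, at REG for 9 and in LAC for none. All these comparisons with NUL share the same 4 control livers.

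The 11 T cell genes chosen for a T cell sum (Cd3d, Cd3e, Cd3g, Trac, Trbc1, Trbc2, Cd5, Cd8a, Cd8b1, Cd28 and Lck) added up to 5.72, 5.62, 4.33 and 4.51 CPM in NUL, 2.48, 2.32 and 1.63 in LAC and 2.96, 4.3 and 2.12 at ID2. Later the sum was 2.45, 4.72, 3.63 and 5.08 CPM at ID4, 5.05 to 7.87 (median 5.83) at ID6, 5.51, 5.58 and 5.38 at ID8 and 5.55, 5.6, 4.45 and 6.73 at REG. All 3 LAC livers and all 3 ID2 livers lay below all 4 NUL livers, and every other stage overlapped NUL. As means these were 5.05 ± 0.727 CPM in NUL (SD, n = 4), 2.14 ± 0.455 in LAC (n = 3; 0.425 of the NUL mean), 3.13 ± 1.1 at ID2 (n = 3; 0.62), 3.97 ± 1.19 at ID4 (n = 4; 0.787) and 5.97 ± 1.02 at ID6 (n = 6; 1.18). ID8 stood at 5.49 ± 0.0986 (n = 3) and REG at 5.58 ± 0.931 (n = 4). The 3 ID8 livers, at 5.38 to 5.58 CPM, lay closest together.

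Cytotoxic and NK genes (Gzma, Gzmb, Prf1, Nkg7, Klrb1c, Klrd1, Klrk1, Ncr1 and Eomes) summed to 3.96, 3.2, 3.72 and 2.31 CPM in NUL, 2.09, 1.89 and 1.13 in LAC and 3.66, 2.63 and 2.87 at ID2. After that they summed to 4.83, 5.57, 3.98 and 3.9 CPM at ID4, 3.63 to 7.16 (median 5.06) at ID6, 2.69, 4.64 and 4.77 at ID8 and 4.37, 4.46, 3.93 and 5.51 at REG. LAC lay below every NUL liver, at 0.516 of the NUL mean. Unlike the T cell sum, the ID2 livers overlapped NUL (0.927) and lay above all LAC livers. The ID4 livers lay in turn above all ID2 livers, as did their leukocyte and macrophage marker sums (described with that step below), and the highest mean was at ID6, 5.37 ± 1.23 CPM (n = 6), or 1.63 of NUL with overlapping livers.

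The chemokine Ccl5 and the chemokine receptors Cxcr6 and Cxcr3 summed to 2.82, 2.77, 2.61 and 1.85 CPM in NUL, 1.31, 1.13 and 0.97 in LAC and 1.19, 1.61 and 1.52 at ID2. Both LAC (0.453 of the NUL mean) and ID2 (0.573) lay below every NUL liver. The later values were 1.34, 3.57, 1.73 and 2.81 CPM at ID4, 2.42 to 4.26 (median 3.09) at ID6, 2.07, 3.21 and 3.57 at ID8 and 3.04, 2.5, 2.54 and 3.17 at REG. ID4 was spread most widely, with ID4_13 and ID4_211 below all NUL livers and ID4_15 above all NUL livers. The exocrine pancreas marker sum of ID4_15 was 76.9 CPM, against 8.37 to 10.8 in the other ID4 livers, and its lymph node marker sum was 4.21 CPM against 2.21 to 2.84. The part of attached tissue in its values was not tested. These sums were chosen with earlier results of these data known and carry no test.

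**Figure D1:**
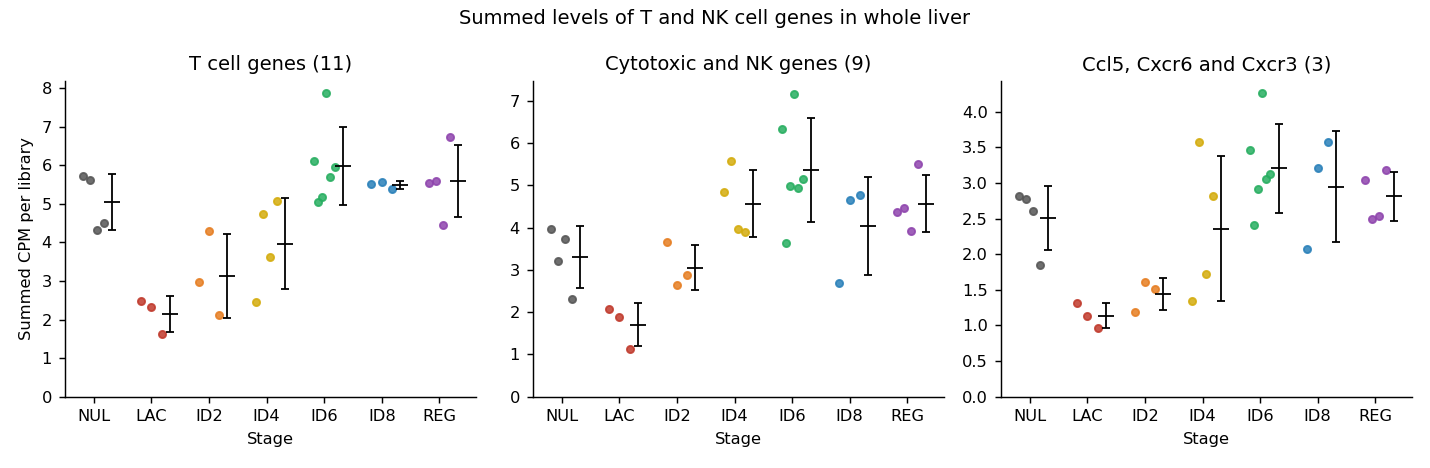
Summed CPM of 11 T cell genes, 9 cytotoxic and NK genes and 3 chemokine genes (vertical axes) in each liver (points) by stage (horizontal axis); black bars give mean and SD. All 3 LAC livers lie below all 4 NUL livers in each panel, and the ID2 livers lie below NUL for the T cell and chemokine genes and not for the cytotoxic genes.

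Lactation against the nulliparous state gave most of the calls. In LAC, 9 of the 33 genes tested were lower and none was higher, where 6.00% of all genes tested were called lower and 5.19% higher. The 9 were Lck, Gzma, Trbc2, Ccl5, Skap1, Cd3g, Nkg7, Cxcr6 and Cd2, with log2 fold changes between -2.06 and -1.06. In all, 31 of the 33 had a fitted change below 0 (51.4% of all genes), 18 had an unadjusted p under 0.05 (23.6% of all genes) and 11 had all 3 LAC livers below all 4 NUL livers (11.2% of all genes). Fitted log2 fold changes, called log2 changes below, had a median of -1.03 over the 33 and -0.01 over all genes. The members above 0 were Cd247, at 0.48, and Tbx21, at 0.17, and neither was called. The count of calls was 5 without NUL_220, 4 without NUL_221, 5 without LAC_213, 4 without LAC_240 and 4 when only LAC and NUL were fitted. In these fits, and under the 10 other alternatives tried, all member calls were lower.

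Among the genes of the receptor complex, 2 of 7 were lower: Trbc2 and Cd3g. Trbc2 (ENSMUSG00000076498, chromosome 6, 41546730 to 41548352), was at 0.569, 0.762, 0.525 and 0.897 CPM in NUL, 0.172, 0.258 and 0.173 in LAC and 0.808, 0.359 and 0.445 at ID2. The LAC livers were the lowest of the 3 stages without overlap, and the log2 fold change from NUL was -1.76 (SE 0.45, edgeR adjusted p = 0.00999). This call held without each liver in turn and under each of the 10 other alternatives run. At the later stages Trbc2 was at 0.365, 0.925, 0.263 and 0.963 CPM at ID4, 0.767 to 1.48 (median 0.878) at ID6, 1.14, 0.647 and 1.26 at ID8 and 0.797, 0.617, 0.428 and 1.07 at REG. Its copy, Trbc1 (ENSMUSG00000076490, chromosome 6, 41538218 to 41539881), had 0.548 ± 0.104 CPM in NUL (n = 4) and 0.27 ± 0.149 in LAC (n = 3), also without overlap, and the log2 change of -1.02 (SE 0.44, edgeR adjusted p = 0.149) was not called. Summed over the pair, the values were 1.22, 1.39, 0.986 and 1.35 CPM in NUL, 0.604, 0.499 and 0.312 in LAC and 0.935, 1.02 and 0.546 at ID2. Later the pair was at 0.775, 1.34, 0.702 and 1.42 CPM at ID4, 1.26 to 2.27 (median 1.59) at ID6, 1.66, 1.44 and 1.89 at ID8 and 1.43, 1.08, 0.998 and 1.72 at REG. All 3 ID8 livers lay above all 4 NUL livers, and ID4, ID6 and REG overlapped NUL. LAC lay below every NUL liver, on a value that does not depend on how reads were divided between the copies.

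Cd3g (ENSMUSG00000002033, chromosome 9, 44969572 to 44980431), the gamma chain of CD3, was at 0.867, 1.1, 0.525 and 0.562 CPM in NUL, 0.466, 0.292 and 0.26 in LAC and 0.38, 0.552 and 0.344 at ID2. All LAC livers were below all NUL livers, with a log2 change of -1.17 (SE 0.33, edgeR adjusted p = 0.0214). That call was lost without NUL_220, NUL_221, LAC_213 or LAC_240 (edgeR adjusted p from 0.0518 to 0.108). Afterwards Cd3g was at 0.319, 0.578, 0.453 and 0.71 CPM at ID4, 0.626 to 1.09 (median 0.771) at ID6, 0.777, 0.848 and 0.537 at ID8 and 0.857, 1.2, 0.808 and 0.917 at REG. Cd3e (ENSMUSG00000032093, chromosome 9, 44998740 to 45009627), the epsilon chain, was at 0.569, 0.716, 0.286 and 0.441 CPM in NUL, 0.241, 0.309 and 0.19 in LAC and 0.19, 0.193 and 0.0809 at ID2. Its LAC livers overlapped NUL in 1 liver and the log2 change of -1.02 (SE 0.46, edgeR adjusted p = 0.163) was not called by edgeR. Both limma fits called it lower (adjusted p = 0.0345 and 0.0349). Cd3e was lowest at ID2, described below, and was at 0.228, 0.182, 0.322 and 0.363 CPM at ID4, 0.231 to 0.802 (median 0.527) at ID6, 0.362, 0.273 and 0.426 at ID8 and 0.226, 0.772, 0.412 and 0.534 at REG. The delta chain gene Cd3d had 11 to 34 counts per liver in NUL and 5 to 10 in LAC (-1.33 (SE 0.52, edgeR adjusted p = 0.103)). Cd3d and Cd3g start 1355 bases apart on opposite strands of chromosome 9. Trac had 3 to 16 counts in NUL and 1 to 10 in LAC, and Cd247, whose counts were fractional in 25 libraries, had 2.88 to 36.84 and 10.26 to 37.57.

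Of the 4 signalling genes, Lck and Skap1 were called lower in LAC, and Ptprcap and Zap70 were not. Lck (ENSMUSG00000000409, chromosome 4, 129548344 to 129573641), the kinase that starts receptor signalling, was at 1.92, 1.37, 1.08 and 1.05 CPM in NUL, 0.621, 0.516 and 0.416 in LAC and 0.951, 0.951 and 0.607 at ID2. The highest LAC liver was well under the lowest NUL liver, and the log2 change was -1.39 (SE 0.33, edgeR adjusted p = 0.00556). The call held without each liver in turn and was lost in 1 of 10 other alternatives, limma on log2(TPM + 1) (adjusted p = 0.0735). Later Lck was at 0.486, 1.16, 1.05 and 1.23 CPM at ID4, 0.99 to 1.88 (median 1.52) at ID6, 1.04, 1.78 and 1.48 at ID8 and 1.34, 1.34, 0.919 and 1.83 at REG, where all but ID4_13 exceeded every LAC liver. Skap1 (ENSMUSG00000057058, chromosome 11, 96464593 to 96759130), an adaptor that links the receptor to integrin adhesion, was at 0.501, 0.549, 0.445 and 0.258 CPM in NUL, 0.19, 0.0688 and 0.19 in LAC and 0.206, 0.51 and 0.263 at ID2. Its log2 fold change in LAC was -1.54 (SE 0.44, edgeR adjusted p = 0.0213), lost without LAC_213 (edgeR adjusted p = 0.139) or NUL_221 (0.0564). Ptprcap (ENSMUSG00000045826, chromosome 19, 4153604 to 4156751), which encodes a protein associated with CD45, was at 0.976, 0.777, 0.827 and 0.73 CPM in NUL, 0.328, 0.55 and 0.346 in LAC and 0.539, 1.19 and 0.445 at ID2. All LAC livers lay below all NUL livers, and the log2 change was -1.02 (SE 0.34, edgeR adjusted p = 0.0522), just above the threshold. DESeq2 called it lower (adjusted p = 0.0335), as did both limma fits (0.0193 and 0.0457). So did edgeR with a filter of CPM at least 1 in 3 libraries (0.0477) and without LAC_213 (0.0475), and the other alternatives did not. Ptprcap overlaps Rps6kb2 on the other strand and Coro1b on its own strand, and whether strand was used in counting is not given in the sources used here. Coro1b had 70.7 CPM in NUL and 63.7 in LAC. At the later stages Ptprcap was at 1.14, 0.875, 0.658 and 0.963 CPM at ID4, 0.724 to 1.51 (median 1.06) at ID6, 1.16, 0.561 and 0.521 at ID8 and 1.02, 1.0, 0.919 and 0.971 at REG.

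Of the co-receptors and co-stimulatory receptors, 7 of 7 had a fitted change below 0 in LAC and 1, Cd2, was called. Cd2 (ENSMUSG00000027863, chromosome 3, 101275899 to 101287939), an adhesion receptor of T and NK cells, was at 0.596, 0.762, 0.382 and 0.106 CPM in NUL, 0.19, 0.0344 and 0.104 in LAC and 0.174, 0.717 and 0.0607 at ID2. The groups overlapped, since NUL_227 was as low as the LAC livers, and the log2 change of -2.06 (SE 0.67, edgeR adjusted p = 0.0453) was lost in 5 of 7 fits without 1 liver (NUL_220, NUL_221, NUL_226, LAC_213 or LAC_240; edgeR adjusted p from 0.0608 to 0.207). Cd4 (ENSMUSG00000023274, chromosome 6, 124864692 to 124888221), the co-receptor for MHC class II, which mouse dendritic cells can also express, was at 0.989, 1.34, 1.18 and 0.806 CPM in NUL, 0.673, 0.481 and 0.935 in LAC and 0.634, 1.24 and 1.03 at ID2. Its LAC value of -0.63 (SE 0.29, edgeR adjusted p = 0.172) was not called by edgeR, and limma on log2(TPM + 0.1) called it lower (adjusted p = 0.0282). Cd4 differed over the 7 stages in the joint test (edgeR adjusted p = 0.0382), with its highest mean at ID4. The later livers were at 1.98, 1.34, 1.67 and 1.23 CPM at ID4, 0.99 to 1.67 (median 1.48) at ID6, 0.88, 1.45 and 1.18 at ID8 and 1.28, 1.39, 1.19 and 0.766 at REG. The CD8 genes were near the floor of detection. Cd8a was at 0.136, 0.305, 0.223 and 0.198 CPM in NUL, 0.276, 0.138 and 0 in LAC and 0.0951, 0.276 and 0.0405 at ID2, and at 0, 0.363, 0.0731 and 0.158 CPM at ID4, 0.0579 to 0.302 (median 0.201) at ID6, 0.0259, 0.101 and 0.0316 at ID8 and 0.406, 0.232, 0.0792 and 0.547 at REG. Its groups overlapped in LAC, and no comparison called it. Cd8b1 had 4 to 18 counts per liver in NUL and 0 to 1 in LAC, and was called lower with the number of runs or the title number range as a covariate (edgeR adjusted p = 0.0492 and 0.0498). Cd5, Cd27 and Cd28 had 9 to 22, 8 to 23 and 8 to 14 counts in NUL, and 2 to 10, 6 to 12 and 4 to 9 in LAC.

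Of the cytotoxic and NK genes other than the transcription factor Eomes, 7 were tested and 2, Gzma and Nkg7, fell in lactation. Gzma (ENSMUSG00000023132, chromosome 13, 113093825 to 113100981), granzyme A, a protease of cytotoxic granules, was at 0.881, 1.01, 0.70 and 0.73 CPM in NUL, 0.259, 0.499 and 0.208 in LAC and 0.745, 0.786 and 0.526 at ID2. Its LAC livers were all below its NUL livers, with a log2 change of -1.36 (SE 0.33, edgeR adjusted p = 0.00786), lost without LAC_240 (edgeR adjusted p = 0.0609). Nkg7 (ENSMUSG00000004612, chromosome 7, 43437073 to 43438249), a membrane protein of the same granules, was at 0.461, 0.457, 0.366 and 0.365 CPM in NUL, 0.224, 0.155 and 0.0519 in LAC and 0.523, 0.262 and 0.223 at ID2. LAC and NUL did not overlap, and the log2 change was -1.51 (SE 0.46, edgeR adjusted p = 0.0313). This call was lost without NUL_220, NUL_221, LAC_213 or LAC_240 (edgeR adjusted p from 0.0621 to 0.171). Prf1 (ENSMUSG00000037202, chromosome 10, 61297833 to 61304680), perforin, which opens the target membrane, was at 0.217, 0.0762, 0.35 and 0.0912 CPM in NUL, 0.103, 0 and 0.0173 in LAC and 0.206, 0.0965 and 0.303 at ID2. With 0 to 6 counts per LAC liver its log2 change of -2.13 (SE 0.77, edgeR adjusted p = 0.0724) was not called by edgeR. DESeq2 called it (adjusted p = 0.0398), as did edgeR without LAC_200 (0.0158). Granzyme B (Gzmb) had 0.34 ± 0.229 CPM in NUL (n = 4) and 0.258 ± 0.186 in LAC (n = 3), with overlapping livers.

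The NK receptors tested had fitted changes below 0 in LAC and none was called. Klrk1 (ENSMUSG00000030149, chromosome 6, 129610323 to 129623864), NKG2D, was at 1.46, 0.914, 1.32 and 0.73 CPM in NUL, 1.02, 0.602 and 0.658 in LAC and 1.33, 0.965 and 1.23 at ID2, with a log2 change of -0.54 (SE 0.31, edgeR adjusted p = 0.306). Ncr1 (ENSMUSG00000062524, chromosome 7, 4337724 to 4345164), NKp46, the gene most specific to NK cells and related innate lymphocytes in this list, was at 0.271, 0.335, 0.111 and 0.182 CPM in NUL, 0.0172, 0.189 and 0.0346 in LAC and 0.254, 0.248 and 0.0607 at ID2. The log2 fold change of Ncr1 was -1.47 (SE 0.69, edgeR adjusted p = 0.193), and LAC_213 overlapped NUL. Without LAC_213 it was called (edgeR adjusted p = 0.0352). Klrb1c had 2 to 9 counts per liver in NUL and 0 to 3 in LAC, and Klrd1 (CD94) 2 to 7 and 0 to 5.

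No cytokine receptor or transcription factor of the list was called in LAC. Il2rb (ENSMUSG00000068227, chromosome 15, 78479256 to 78495271), was at 2.41, 1.59, 1.42 and 1.11 CPM in NUL, 1.35, 1.13 and 1.13 in LAC and 0.919, 0.979 and 0.809 at ID2, where LAC overlapped NUL (-0.44 (SE 0.25, edgeR adjusted p = 0.283)). Il7r, the receptor for the T cell survival cytokine interleukin 7, had 4 to 22 counts in NUL and 2 to 8 in LAC (-1.51 (SE 0.57, edgeR adjusted p = 0.0906)), and was called without NUL_226 (edgeR adjusted p = 0.0368). Tbx21 (ENSMUSG00000001444, chromosome 11, 97098071 to 97115331), T-bet, the T-box factor of type 1 T cells and NK cells, was at 0.339, 0.198, 0.0955 and 0.137 CPM in NUL, 0.31, 0.189 and 0.156 in LAC and 0.158, 0.0965 and 0.121 at ID2. All LAC livers lay within the NUL range. Eomes, its relative, had 0 to 9 counts per liver in NUL and 0 to 5 in LAC.

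Both Ccl5 and Cxcr6 were lower in LAC. Ccl5 (ENSMUSG00000035042, chromosome 11, 83525778 to 83530518), a chemokine made by activated T and NK cells, was at 1.04, 0.808, 1.4 and 0.486 CPM in NUL, 0.276, 0.327 and 0.398 in LAC and 0.539, 1.08 and 0.587 at ID2. The LAC livers lay close together below all NUL livers, with a log2 change of -1.48 (SE 0.41, edgeR adjusted p = 0.0175), lost without NUL_226, LAC_200 or LAC_213 (edgeR adjusted p from 0.0663 to 0.0799). Cxcr6 (ENSMUSG00000048521, chromosome 9, 123806475 to 123811760), the receptor for CXCL16, was at 1.21, 1.46, 0.795 and 1.11 CPM in NUL, 0.724, 0.636 and 0.277 in LAC and 0.491, 0.386 and 0.425 at ID2. LAC lay below NUL and ID2 lower still on average, with a log2 fold change in LAC of -1.06 (SE 0.34, edgeR adjusted p = 0.0412). The LAC call was lost without NUL_220, NUL_221, NUL_227, LAC_213 or LAC_240 (edgeR adjusted p from 0.0582 to 0.220). Cxcr6 lies within Fyco1 on the other strand, which stood at 49.3 CPM in NUL and 49.8 in LAC (log2 fold change 0.02). Cxcr3, a receptor for interferon-induced chemokines, had 0.436 ± 0.134 CPM in NUL (n = 4) and 0.259 ± 0.0757 in LAC (n = 3; -0.75 (SE 0.46, edgeR adjusted p = 0.338)).

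Regulatory T cell and checkpoint genes were close to the floor of detection, and of Foxp3, Ctla4 and Pdcd1 only Foxp3 had enough counts to be tested. Foxp3 (ENSMUSG00000039521, chromosome X, 7573644 to 7595245), the factor that defines regulatory T cells, was at 0.136, 0.107, 0.191 and 0.0456 CPM in NUL, 0.0345, 0.138 and 0 in LAC and 0.254, 0.248 and 0.0809 at ID2, and at 0, 0.0826, 0.161 and 0.0158 CPM at ID4, 0 to 0.125 (median 0.0577) at ID6, 0.0518, 0.0287 and 0.174 at ID8 and 0, 0.154, 0.127 and 0.287 at REG. Its counts were 0 in 4 libraries and fractional in 23, and no comparison called it (log2 change in LAC of -1.03 (SE 1.08, edgeR adjusted p = 0.622)). Ctla4 had 0 to 8 counts per library, with 0 in 12 of 27. Pdcd1 had 0 to 10, with 0 in 18, among them all 4 NUL and all 4 REG livers, and a count of 0 allows up to 3.

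**Figure D2:**
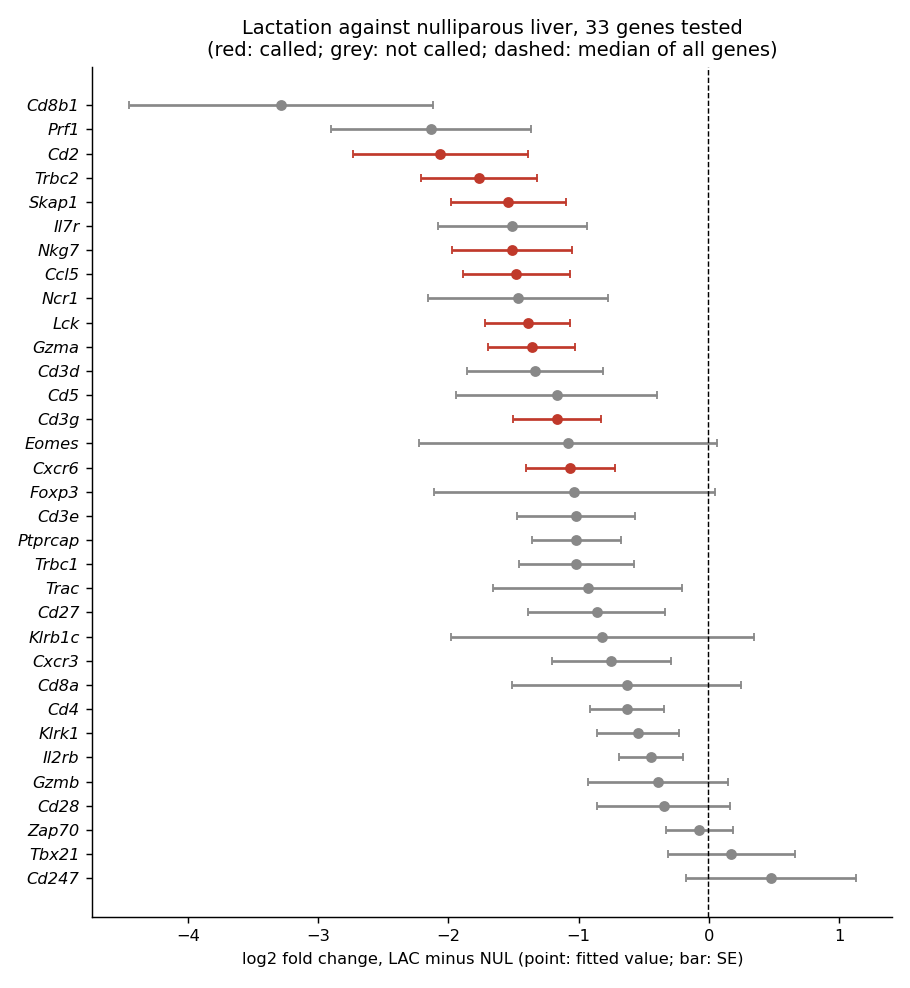
Fitted log2 fold change in LAC relative to NUL (horizontal axis, with SE) for the 33 genes tested (vertical axis), ordered by value. Of these, 31 lie below 0 and the 9 in red were called; Cd8b1, at the far left, rests on at most 1 count per LAC liver and was not called.

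Other cell types moved with lactation. All 5 leukocyte markers (Ptprc, Coro1a, Laptm5, Cd52 and Cd53) were called lower in LAC, and their sum was 39.8 ± 2.71 CPM in NUL (n = 4) and 23.5 ± 4.3 in LAC (n = 3), without overlap. Among macrophage markers 5 of 7 were lower (sums of 354 to 457 CPM in NUL and at most 341 in LAC). In the B and plasma cell list Cd79b was among the genes called lower, while the sum, mostly Ighm, overlapped (12.4 to 24.0 and 15.9 to 26.3 CPM). The sum of 6 lymph node stroma and follicle markers ran from 2.32 to 4.87 CPM in NUL and from 1.19 to 1.64 in LAC, with Ccl21a and Fcer2a called lower and Madcam1 at 0 in both. Hepatocyte markers went the other way as a sum, from 89371 to 116454 CPM in NUL and from 177369 to 220697 in LAC, and 1 of the 4 was called, higher. That gene, Alb, made up most of the sum (89786 CPM in NUL and 177113 in LAC), while Apoa1 was at 5833 and 6515 CPM, Ttr at 6733 and 6404 and Cps1 at 4019 and 4437. Dendritic cell markers were called lower in 3 of 5 (Flt3, Xcr1 and Siglech), stellate and fibroblast markers in 2 of 4 (Dcn and Reln) and monocyte and neutrophil markers in 1 of 5 tested (Ccr2). Their sums were at 0.772, 0.679 and 0.559 of NUL, each without overlap. The sinusoidal endothelium sum was at 0.810 of NUL without overlap and with no gene called, bile duct markers overlapped, and the exocrine pancreas sum was at 0.408 of NUL without overlap. Cela1 made up nearly all of that pancreas sum (19.8 CPM in NUL and 8.01 in LAC) and was not called. The other pancreas genes were barely detected in either group. Erythroid markers, which follow the red cells in the tissue, summed to 332 ± 107 CPM in NUL (n = 4) and 612 ± 71.5 in LAC (n = 3), higher without overlap and with no gene called. The part of these shifts in the lower T and NK values was not tested.

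Set against the leukocyte marker sum, the T cell sum was 12.8% ± 2.33 in NUL (n = 4) and 9.17% ± 1.73 in LAC (n = 3), with ranges of 10.0 to 15.2% and 7.71 to 11.1% that overlapped. The cytotoxic sum was 8.25% ± 1.59 and 7.23% ± 1.85, and the chemokine sum 6.32% ± 1.18 and 4.87% ± 0.471, both overlapping. Relative to leukocyte markers, LAC therefore had 0.719, 0.876 and 0.770 of the NUL ratio, against 0.425, 0.516 and 0.453 in CPM. On this scale LAC was not the lowest stage for the T cell sum, which was 8.64% ± 2.78 at ID2 (n = 3; 0.677 of NUL) and 8.12% ± 2.41 at ID4 (n = 4; 0.637), each overlapping NUL. The chemokine sum was lowest at ID2, at 4.0% ± 0.650 (n = 3; 0.633 of NUL), with all ID2 livers below all NUL livers, and stood at 4.75% ± 1.72 at ID4 (n = 4; 0.751). The cytotoxic sum was lowest in LAC and highest at REG, at 10.7% ± 1.29 (n = 4; 1.3 of NUL), overlapping NUL. This denominator was chosen after the data were seen.

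**Figure D3:**
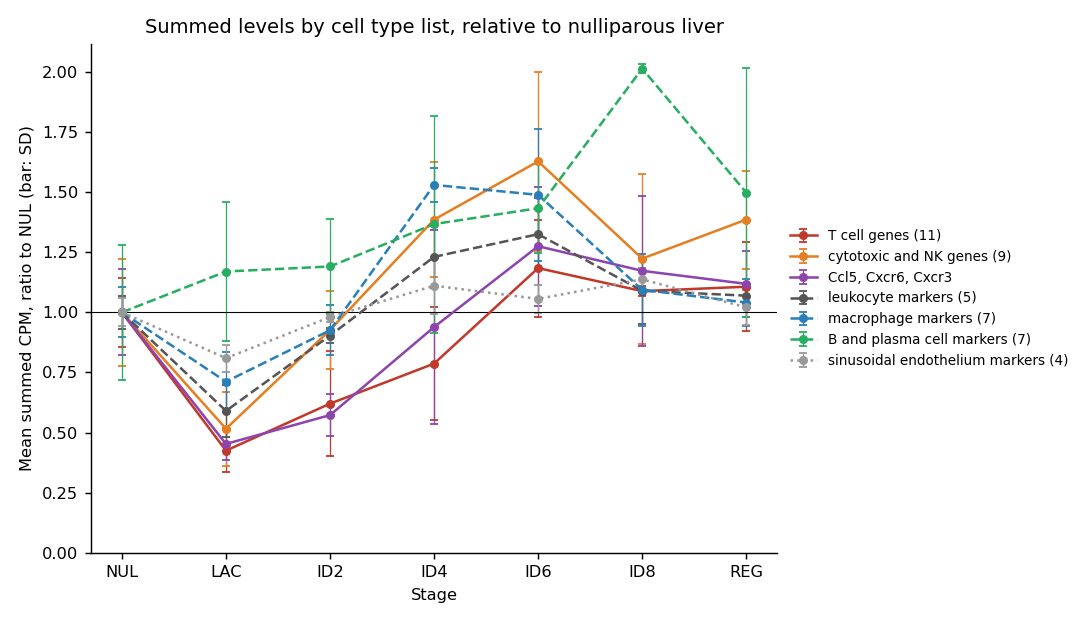
Mean summed CPM relative to NUL (vertical axis; bars, SD divided by the NUL mean) of member sums (solid lines) and marker lists of other cells (broken lines) by stage (horizontal axis). The leukocyte, macrophage and sinusoidal endothelium markers are also below NUL in LAC; at ID4 the T cell sum is at 0.787 of NUL and the leukocyte marker sum at 1.23.

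A wider list of 64 T and NK genes outside the 36, of which 57 were tested, had 9 lower and 1 higher in LAC and a median log2 fold change of -0.84. Of all genes tested, 6.00% were called lower in LAC and 5.19% higher. The lower genes included Sh2d2a, an adaptor of activated T cells (-1.90, SE 0.48, edgeR adjusted p = 0.00941), and Il2rg, the common cytokine receptor chain (-0.80, SE 0.19, edgeR adjusted p = 0.00736). S1pr5, which guides NK cells out of lymphoid tissue, was the higher gene (1.22, SE 0.30, edgeR adjusted p = 0.00835). Some genes of that list, S1pr1 among them, are strongly expressed by endothelium. The CPM sum of the list, to which S1pr1 alone added 81.3 at ID6, was 179 ± 13.9 in NUL (n = 4), 165 ± 19.7 in LAC (n = 3; 0.919 of NUL, overlapping) and 155 ± 7.7 at ID2 (n = 3; 0.867, below all NUL livers). From LAC to ID2, 4 of the 57 were called higher, Lcp2 and Il2rg among them, and 1 lower, Tcf7, a transcription factor of T cells (-1.09, SE 0.24, edgeR adjusted p = 0.00252). Over all genes 8.48% were called higher in this comparison, so the share in the list was no larger. Against NUL, edgeR called 0 at ID2, ID6, ID8 and REG (6, 7, 3 and 2 at an unadjusted p under 0.05), and ID4 had 1 in each direction. Over all genes, such a p was found for 2773 of 16428 at ID2, 11.9% at ID6, 12.8% at ID8 and 7.17% at REG. At ID4, 4.25% of all genes were called in either direction. Of 18 ligands and survival cytokines, 14 were tested and 3 were lower in LAC: Cxcl16, the ligand of CXCR6 (8.89 ± 0.540 CPM in NUL and 6.69 ± 0.777 in LAC), Il15ra, which presents interleukin 15 to NK cells (23.3 ± 4.56 and 12.6 ± 0.219), and Cd48 (1.79 ± 0.189 and 1.10 ± 0.0664), with n = 4 and 3.

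The comparisons after weaning asked when these genes leave their level in lactation. From LAC to ID2, 3 of the 33 members were called, all higher: Zap70, Gzma and Trbc2. That count is close to the share of all genes called higher, 8.48%. Over all genes, 52.6% of the calls in this comparison were higher. Gzma was higher at ID2 by a log2 change of 1.09 (SE 0.35, edgeR adjusted p = 0.0342) and Trbc2 by 1.41 (SE 0.47, edgeR adjusted p = 0.041), each with all ID2 livers above all LAC livers. DESeq2 also called Prf1 higher (adjusted p = 0.0294). The calls were fragile. That of Gzma was lost without LAC_200, LAC_240, ID2_224 or ID2_31 (edgeR adjusted p from 0.0909 to 0.141), and that of Trbc2 without any liver other than ID2_31 (0.0573 to 0.237). No member was called with the range of the title numbers as a covariate, at log2 changes of 1.04 for Zap70 (edgeR adjusted p = 0.0513), 1.61 for Trbc2 (0.0567) and 0.91 for Gzma (0.169). Over the 33, 26 had a fitted change above 0 (51.6% of all genes) and the median log2 fold change was 0.84. In the same comparison 4 of 5 leukocyte markers were called higher, with 4 of 7 macrophage and 2 of 5 monocyte and neutrophil markers, and Siglech, Stab2 and Ccl21a of the dendritic, endothelial and lymph node lists, while Alb was called lower. The 3 of 6 exocrine pancreas markers called higher go with 1 liver, ID2_31, whose sum is given below. Sums of the leukocyte, monocyte, dendritic, endothelial, stellate and lymph node markers were higher in all ID2 livers than in all LAC livers, and that of the macrophage markers overlapped. The part of these shifts in the member values was not tested.

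Against NUL, ID2 had 3 calls, Cxcr6 and Cd3e lower (0.919% of all genes were called lower) and Zap70 higher (2.32%). Cxcr6 at ID2 was far below every NUL liver, with a log2 change of -1.40 (SE 0.35, edgeR adjusted p = 0.0229). Cd3e likewise did not overlap NUL (-1.66 (SE 0.47, edgeR adjusted p = 0.0485)). Il2rb at ID2 was also below all NUL livers and all LAC livers, and just missed the call against NUL (-0.85 (SE 0.25, edgeR adjusted p = 0.0562)); DESeq2 called it (adjusted p = 0.0281). The Cxcr6 call was lost without NUL_221 or any single ID2 liver (edgeR adjusted p from 0.0552 to 0.109), and that of Cd3e without any liver other than NUL_226 (0.0673 to 0.242). The leukocyte marker sum at ID2 was 34.5 to 37.0 CPM, overlapping NUL (36.9 to 43.1), and none of its 5 genes was called. Of the other marker lists, the hepatocyte sum was at 1.3 of NUL and the dendritic sum at 0.841, each without overlap, with Cps1 called higher and no dendritic gene called. Ctrb1 of the exocrine pancreas list was also called higher. The part of these shifts in the member values was not tested.

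Of the ID2 livers, 2 carry title numbers under 200, and all NUL and LAC livers carry numbers of 200 or more. With the number range as a covariate the comparison of ID2 with NUL had no member call, at log2 changes of -1.47 for Cxcr6 (edgeR adjusted p = 0.107), -1.27 for Cd3e (0.367) and 0.96 for Zap70 (0.158). The ID2 liver with a number of 200 or more, ID2_224, had a T cell sum of 2.96 CPM, Cxcr6 at 0.491, Cd3e at 0.190 and Zap70 at 10.5. Each value lay outside the NUL range. ID2_224 is among the livers that gave the calls, so its values are no separate support for them. With 1 liver, the part of the number range in these values was not tested. What the numbers stand for is not given in the sources used here.

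Liver ID2_31 stood apart from its group. Its exocrine pancreas marker sum was 1047 CPM, against 6.13 and 10.3 in the other ID2 livers, and its lymph node marker sum was 6.12 CPM against 2.49 and 3.30. It was also the highest ID2 liver for 21 of the 36 members, with Cd2 at 0.717 CPM against 0.174 and 0.0607, Trbc1 at 0.662 against 0.127 and 0.101, and Cd8b1 at 0.303 against 0.0158 and 0. The T cell sum at ID2 was 3.13 CPM with this liver and 2.54 without it, and the cytotoxic sum 3.06 and 3.27. Without it, Trbc1 was called lower than NUL at ID2 (log2 fold change -2.24, SE 0.43, edgeR adjusted p = 0.00546), and Cxcr6, Cd3e and Zap70 were not called (0.107, 0.104 and 0.112), with log2 changes of -1.31, -1.85 and 0.93 in place of -1.40, -1.66 and 0.91. The part of attached tissue in the values of this liver was not tested.

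Zap70 did not follow the other T cell genes. Zap70 (ENSMUSG00000026117, chromosome 1, 36761798 to 36782818), the kinase that binds the phosphorylated receptor complex, was at 3.94, 8.02, 4.03 and 4.26 CPM in NUL, 4.98, 5.67 and 3.77 in LAC and 10.5, 9.22 and 8.68 at ID2. The 3 ID2 livers exceeded every liver of every other stage. Its log2 change was 0.91 (SE 0.25, edgeR adjusted p = 0.0472) against NUL and 0.98 (SE 0.28, edgeR adjusted p = 0.0172) against LAC, while LAC and NUL overlapped (-0.07). The later values were 5.78, 6.59, 4.77 and 7.53 CPM at ID4, 2.78 to 5.51 (median 3.69) at ID6, 5.49, 2.93 and 5.46 at ID8 and 5.94, 4.11, 3.99 and 5.3 at REG, with the lowest mean at ID6. The call against NUL was lost without any liver other than NUL_221 (edgeR adjusted p from 0.112 to 0.148), and that against LAC without LAC_240 or ID2_224 (0.0792 and 0.0624). Per transcript length, Zap70 stood at 9.97 ± 0.775 TPM at ID2 (n = 3) and 5.52 ± 2.28 in NUL (n = 4), and Lck at 0.597 ± 0.181 and 0.885 ± 0.248. Thus the order of stages was ID6, ID8, LAC, REG, NUL, ID4, ID2 for Zap70, from low to high, and LAC, ID2, ID4, NUL, REG, ID8, ID6 for Lck. Livers of neighbouring stages in each order overlapped, except ID4 and ID2 for Zap70.

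**Figure D4:**
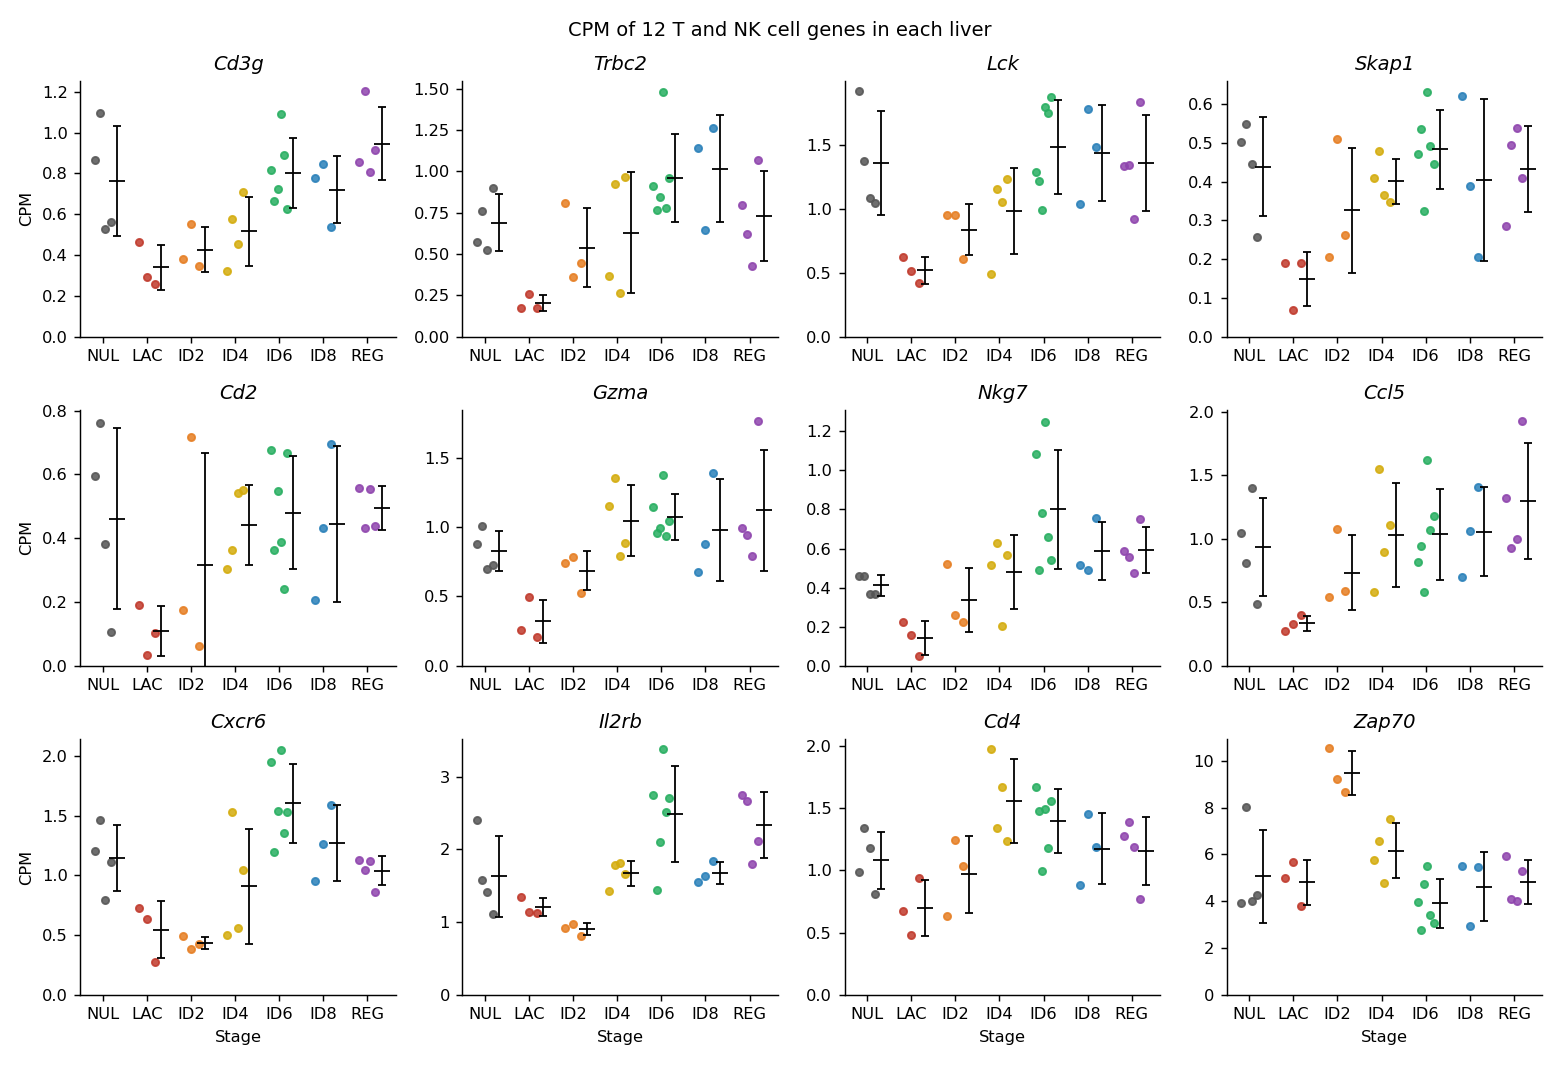
CPM (vertical axes) of 12 genes in each liver (points) by stage (horizontal axes), with mean and SD in black. The first 9 panels are the genes called lower in LAC; Il2rb and Cxcr6 reach their lowest mean at ID2, and Zap70 its highest, with the 3 ID2 livers at 8.68 to 10.5 CPM.

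From ID2 to ID4 no member was called by edgeR (background 1.49% in either direction), with 5 at an unadjusted p under 0.05 (13.9% of all genes). DESeq2 called 1, Il2rb (0.88, adjusted p = 0.0283), and neither limma fit called any. Every ID4 liver exceeded every ID2 liver for Il2rb, at 1.43, 1.78, 1.81 and 1.66 CPM against 0.919, 0.979 and 0.809, a log2 change of 0.88 (SE 0.25, edgeR adjusted p = 0.0669). Cxcr6 (1.06), Tbx21 (1.16) and Gzma (0.790 to 1.35 CPM against 0.526 to 0.786) were likewise above ID2 in every ID4 liver. Zap70 was below (-0.62), and none of them was called. For this step the share of all genes without overlap is not given here, so these genes are only described. Macrophage markers were called higher at ID4 than at ID2 in 6 of 7 (634 ± 29.3 CPM at ID4, n = 4, and 384 ± 42.8 at ID2, n = 3), and of the leukocyte markers Cd53 was called (sums of 49 ± 5.23 and 36 ± 1.31 CPM), both sums without overlap. Alb was called lower and the hepatocyte sum was lower without overlap. The part of these shifts in the member values was not tested. Without ID2_31, Trbc1 was called higher at ID4 than at ID2 (edgeR adjusted p = 0.0369). Against NUL, ID4 also had no call (4.25% of all genes), with 3 at an unadjusted p under 0.05 (18.6%): Cd3e at -0.87, Cd4 at 0.53 and Klrk1 at 0.59. DESeq2 and limma called none. The ID4 means of Cd3e, Cd3g and Lck were below those of NUL and the means of Gzma, Prf1 and Klrk1 above, all with overlapping livers. In the same comparison 5 of 7 macrophage markers were called higher (sum at 1.53 of NUL, without overlap), as were Cd53 of the leukocyte list (sum at 1.23 of NUL, without overlap) and Ly6c2 of the monocyte list, and Reln was called lower. The part of these shifts in the member values was not tested.

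From ID4 to ID6 edgeR called no member either (background 8.53%), with 9 at an unadjusted p under 0.05 (22.9% of all genes). Of the wider T and NK list, edgeR called Satb1 (1.18, adjusted p = 0.00487) and Tcf7 (0.70, adjusted p = 0.0214) higher. The T cell marker sum was 3.10 to 4.88 CPM at ID6 and 1.52 to 3.05 at ID4, without overlap, while the larger T cell sum overlapped. Cxcr6 and Il2rb were higher by 0.82 (SE 0.28, edgeR adjusted p = 0.0626) and 0.57 (SE 0.20, edgeR adjusted p = 0.0763), and both limma fits called them (adjusted p from 0.0110 to 0.0485). In those limma fits the median over all genes was 0.07 and 0.13 on the log2 scale, and 82.2% and 82.5% of all calls were higher, against 45.6% by edgeR. Zap70 was at -0.66 (SE 0.22, edgeR adjusted p = 0.059), and DESeq2 called Cxcr6 and Zap70 (adjusted p = 0.0288 and 0.0222). Without ID4_15, edgeR called Cxcr6 (0.0119), without ID6_209 Il2rb (0.0308) and without ID6_218 Zap70 (0.0239). All 6 ID6 livers exceeded all 4 ID4 livers for Cd27, a co-stimulatory receptor (0.334 to 0.444 CPM against 0.152 to 0.293), and for Trbc1 (0.48 to 0.897 against 0.41 to 0.458). Neither was called, and the share of all genes without overlap in this step is not given here.

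ID6 had the highest mean of 18 of the 36 members, but no member was called against NUL (background 1.08%), with 6 at an unadjusted p under 0.05 (11.9% of all genes). These 6 were Il2rb, Prf1, Nkg7, Klrk1, Ncr1 and Tbx21, all of them higher in the fit. Tbx21, at 0.274, 0.462, 0.219 and 0.174 CPM at ID4, 0.217 to 0.818 (median 0.462) at ID6, 0.362, 0.23 and 0.379 at ID8 and 0.406, 0.386, 0.349 and 0.657 at REG, had a log2 change of 1.32 (SE 0.41, edgeR adjusted p = 0.115), and DESeq2 called it (adjusted p = 0.0470). Il2rb, at 1.43, 1.78, 1.81 and 1.66 CPM at ID4, 1.45 to 3.39 (median 2.62) at ID6, 1.55, 1.64 and 1.85 at ID8 and 2.75, 2.67, 1.81 and 2.12 at REG, had 0.61 (SE 0.20, edgeR adjusted p = 0.16) and was called without NUL_220 (0.0387). Cd27 was above every NUL liver in all 6 ID6 livers, at 0.334 to 0.444 CPM against at most 0.320. Nkg7 was also above every NUL liver in all 6 ID6 livers, at 0.492 to 1.25 (median 0.722) against 0.461, 0.457, 0.366 and 0.365 (0.95 (SE 0.35, edgeR adjusted p = 0.213)). The share of all genes without overlap in this comparison is not given here, so Cd27 and Nkg7 are only described. Nkg7 was not called. It was at 0.517, 0.628, 0.205 and 0.568 CPM at ID4, 0.492 to 1.25 (median 0.722) at ID6, 0.518, 0.489 and 0.758 at ID8 and 0.586, 0.556, 0.475 and 0.753 at REG. The fitted log2 fold changes of Prf1 and Klrk1 were 1.18 and 0.68, with Prf1 at 0.517, 0.429, 0.176 and 0.521 CPM at ID4, 0.145 to 0.603 (median 0.452) at ID6, 0.155, 0.244 and 0.379 at ID8 and 0.316, 0.293, 0.254 and 0.137 at REG and Klrk1 at 1.69, 1.87, 1.99 and 1.15 CPM at ID4, 1.11 to 2.11 (median 1.88) at ID6, 0.595, 1.98 and 1.61 at ID8 and 1.19, 1.56, 1.52 and 1.66 at REG. Ncr1 was at 0.395, 0.363, 0.146 and 0.174 CPM at ID4, 0.237 to 0.976 (median 0.461) at ID6, 0.155, 0.402 and 0.332 at ID8 and 0.451, 0.17, 0.333 and 0.192 at REG, and its highest ID6 liver was ID6_218. Over the tested cytotoxic and NK genes the median log2 fold change was 0.95, over the receptor complex 0.46 and over all genes close to 0. Macrophage markers were called higher in 5 of 7 in the same comparison, and the leukocyte marker sum was 42.5 to 59.4 CPM against 36.9 to 43.1. Relative to that sum the cytotoxic genes were 10.1% ± 1.34 at ID6 (n = 6) and 8.25% ± 1.59 in NUL (n = 4), and the T cell genes 11.3% ± 1.31 and 12.8% ± 2.33, each overlapping. Erythroid markers were far lower at ID6, at 77.8 ± 57.6 CPM (n = 6) against 332 ± 107 in NUL and 459 ± 187 at ID4 (n = 4 each), with Hba-a1 and Hbb-bs called lower than in NUL and 3 of 3 tested lower than at ID4. The part of these shifts in the member values was not tested. Neither limma fit called a member.

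At ID8 and REG no member was called against NUL, by edgeR, DESeq2 or limma (background 0.499% and 0.0852%), with 1 and 2 at an unadjusted p under 0.05 (12.8% and 7.17% of all genes). At ID8 the gene was Cd28, the main co-stimulatory receptor, at 0.518, 0.431 and 0.237 CPM against 0.122, 0.152, 0.223 and 0.122 (1.34 (SE 0.47, edgeR adjusted p = 0.221)). At REG they were Il2rb (0.52) and Tbx21 (1.21), and every REG liver exceeded every NUL liver for Tbx21 and Nkg7. How many of all genes were without overlap at REG is not given here, so this only describes the values. Gzma was at 1.16, 1.35, 0.79 and 0.884 CPM at ID4, 0.936 to 1.38 (median 1.02) at ID6, 0.673, 0.877 and 1.39 at ID8 and 0.992, 0.942, 0.792 and 1.77 at REG, and Cxcr6 at 0.502, 1.54, 0.556 and 1.04 CPM at ID4, 1.2 to 2.05 (median 1.53) at ID6, 0.958, 1.26 and 1.59 at ID8 and 1.13, 1.05, 1.12 and 0.862 at REG. Both overlapped NUL at ID8 and REG and neither was called. Ccl5, at 0.578, 1.55, 0.892 and 1.1 CPM at ID4, 0.577 to 1.62 (median 1.0) at ID6, 0.699, 1.06 and 1.41 at ID8 and 1.32, 0.926, 0.998 and 1.93 at REG, had its highest mean at REG. The steps from ID6 to ID8 and from ID8 to REG called no member (background 4.12% and 0.0487%), with 1 and 2 at an unadjusted p under 0.05 (20.5% and 9.02% of all genes): Il2rb lower at ID8 (-0.56), Cd8a higher (2.46) and Cd28 lower (-1.06) at REG, and DESeq2 and limma called none. All 3 ID8 livers carry title numbers under 200. With the number range as a covariate, which ID2 and ID4 allow to be fitted since they hold both ranges, no member was called at ID8 either, and over all genes the 82 calls against NUL became 7 and the 677 against ID6 became 6. Erythroid markers summed to 20.3 ± 5.76 CPM at ID8 (n = 3), with Hba-a1 and Hbb-bs called lower than in NUL and than at ID6. From ID6 to ID8 the macrophage markers Vsig4, Timd4, Cd5l and Marco were also called lower, with overlapping sums, and Jchain was called higher. From ID8 to REG, Hba-a1 and Hbb-bs were called higher. The part of these shifts in the member values was not tested. Plasma cell RNA was higher at ID8: Jchain was called and the B and plasma cell marker sum was 36.2 to 36.8 CPM against 12.4 to 24.0 in NUL.

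**Figure D5:**
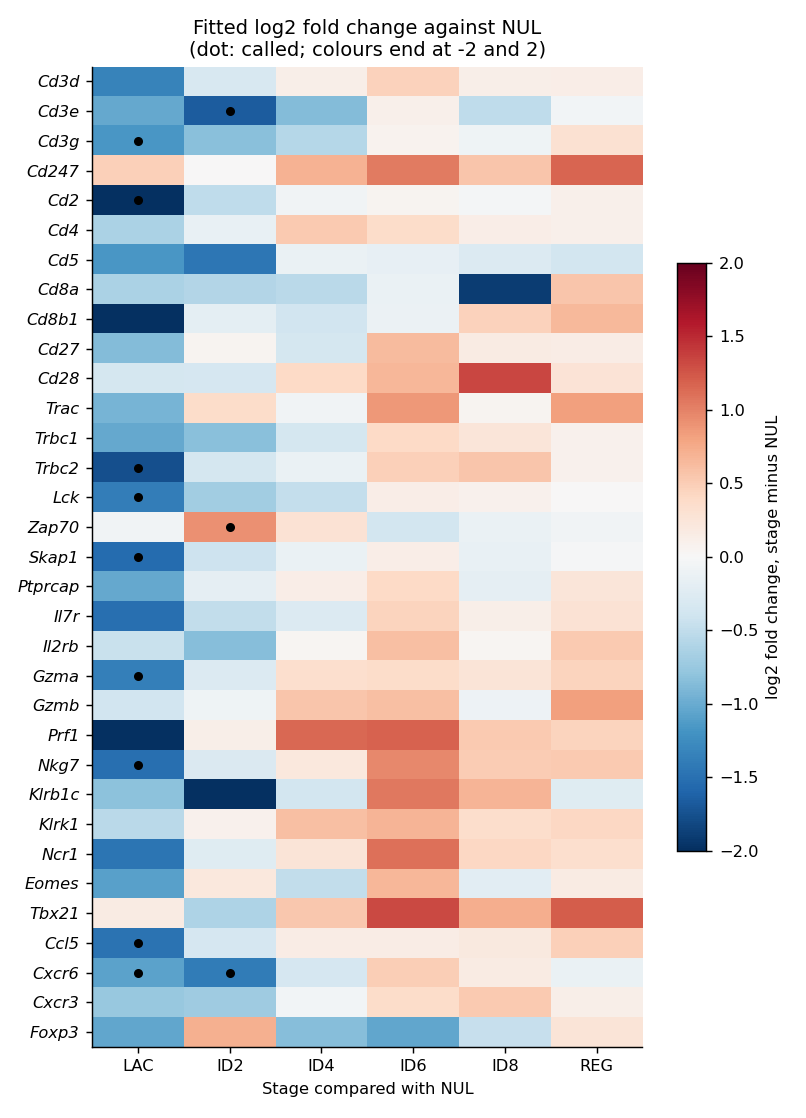
Fitted log2 fold change of each stage (horizontal axis) against NUL for the 33 genes tested (vertical axis), as colour; dots mark calls. The LAC column is below 0 for 31 genes, the calls lie in LAC and ID2, and at ID6 28 of 33 are above 0 (50.8% of all genes) with none called.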

How the data were processed

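Expected counts, TPM, FPKM and gene and effective lengths were deposited per gene for 27 whole-liver libraries; expected counts are the authors' RSEM estimates, in which a read that fits several genes is divided among them. The deposited TPM and FPKM values are the authors' levels scaled by transcript length and depth; TPM served as an alternative and FPKM was not used. Lengths were deposited by the authors and not used. STAR 2.6.1a and RSEM 1.3.1 on mm10 (GRCm38) are named in the submitters' processing notes; RNA was extracted with Trizol and libraries made with NEBNext Ultra, per the labels. Annotation, strand setting and trimming are not given in the sources used here. A deposited note says that 16 libraries were sequenced in 2 runs and 11 in 1. Symbols and positions came from GENCODE M21 on GRCm38, which held 51633 of 51826 identifiers.

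Expected counts were rounded and fitted over all 27 libraries and 7 groups with edgeR 4.0.16 (R 4.3.3; TMM, filterByExpr, robust quasi-likelihood test), with Benjamini-Hochberg adjustment over the 16428 genes tested in each of 11 two-sided comparisons and a joint test. The common dispersion was 0.036, and a gene was called at an adjusted p under 0.05. limma 3.58.1 on log2(TPM + 1) and log2(TPM + 0.1) and DESeq2 1.42.0 were alternatives, beside other filters, RLE scaling, covariates, a fit of only the 2 groups compared and each library left out in turn. The fits were tested on simulated data. The members, lists and tests were chosen with earlier results of these data known. Members called in any comparison or the joint test, up to the 14 with the smallest joint p, and the defining genes Cd3e, Cd4, Cd8a, Ncr1 and Foxp3, are given library by library, with ID6 as a range and median. Skap1, Cd2 and Cd4 were called outside the 14. No 2 libraries of a group agreed within sampling noise. p-values measure the spread between these livers.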

Additional observations from a re-analysis of the deposited data

Results flagged for a closer look

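In groups of 4 to 6 livers, 4 values lay farther from the rest of their group than Dixon's 95% limit, among 92 groups checked; chance gives about 1 in 20 groups. The T cell sum of liver ID6_218 was 7.87 CPM, with the other ID6 livers at 5.05 to 6.10. Trbc2 was at 1.48 CPM in the same liver, with the others at 0.767 to 0.959. That liver was the highest ID6 liver for 15 of the 36 members. Klrk1 was at 1.11 CPM in ID6_209, below the 1.74 to 2.11 of the other ID6 livers. Zap70 was at 8.02 CPM in NUL_221, with the other NUL livers at 3.94 to 4.26. Without NUL_221 the higher Zap70 at ID2 was still called.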

How the results depend on the processing

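The number of members called in LAC against NUL, 9, was 4 when LAC and NUL alone were fitted and 3 at an adjusted p under 0.01, and ran from 4 to 9 without 1 liver. For ID2 against NUL, 3 calls became 1 with no filter on low counts, 1 with only these groups, 0 with the title number range as covariate and 0 at an adjusted p under 0.01, and ran from 0 to 2 without 1 liver. For ID2 against LAC, 3 calls became 1 in limma on log2(TPM + 1), 1 with only these groups, 0 with the title number range, 1 with the number of runs as covariate and 0 at an adjusted p under 0.01, and ran from 0 to 3 without 1 liver. ID6 against NUL had 0 calls, 1 with DESeq2 and 0 to 1 without 1 liver. ID4 against ID2 had 0, then 1 with DESeq2, 1 with only these groups, 1 with the number of runs and 0 to 1 without 1 liver. ID6 against ID4 had 0, then 2 with DESeq2, 1 with a filter of CPM at least 1 in 3 libraries, 2 in each limma fit, 1 with only these groups and 0 to 1 without 1 liver. The joint test called 15, 8 at an adjusted p under 0.01 and 11 to 19 without 1 liver. ID4, ID8 and REG against NUL, ID8 against ID6 and REG against ID8 had 0 under each alternative run.

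Over all genes, the share of LAC calls that were higher was 46.4%, 36.3% on log2(TPM + 1) and 32% on log2(TPM + 0.1); for ID2 against NUL it was 71.6%, 58.0%, 56.3% and, with the title number range, 87.0%. On the same 2 TPM scales it went from 62.2% to 46.1% and 44.2% for ID4 against NUL, from 37.1% to 65.5% and 65.6% for ID6 against NUL, from 72.0% to 48.5% and 50% for ID8 against NUL, from 45.6% to 82.2% and 82.5% for ID6 against ID4 and from 57.6% to 16.6% and 15.5% for ID8 against ID6. All-gene medians on log2(TPM + 0.1) were 0.13 for ID6 against ID4 and -0.11 for ID8 against ID6. The REG comparisons had 8 to 18 calls on these scales.

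Relative to the leukocyte marker sum, a denominator chosen after seeing the data, the ratio to NUL of the T cell sum was 0.719 in LAC, 0.677 at ID2, 0.637 at ID4, 0.888 at ID6, 1.0 at ID8 and 1.03 at REG, that of the cytotoxic sum 0.876, 1.03, 1.12, 1.22, 1.11 and 1.3, and that of the chemokine sum 0.770, 0.633, 0.751, 0.956, 1.06 and 1.04. In summed TPM the T cell sum at ID8 was 1.05 of NUL, and the chemokine sum 0.363 in LAC, 0.696 at ID2 and 1.31 at REG. Without Cxcr6 or whichever member was most abundant, the chemokine sum was 0.734 at ID2 and 1.29 at REG. The T cell sum at ID8 ran from 1.04 to 1.14 of NUL without 1 liver. The cause of these shifts was not tested. No value reversed its direction among single genes named for their calls.

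No paired analysis was possible because no title number occurs in more than 1 group. Counts of 0 to about 50 per liver for most members limit what can be called.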
